A study of Mus musculus with 32 samples.

Results

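Cleavage and polyadenylation factors cut a new mRNA at its 3′ end and add its poly(A) tail. Of the 38201 genes in the gene tables, 10 that encode such factors were chosen by name: Nudt21, Cpsf6, Cpsf7, Papola, Pcf11, Clp1, Cstf2, Cstf3, Fip1l1 and Wdr33. All 10 passed the filter on low values in both fractions. Poly(A)+ RNA was sequenced from P19 cells, a mouse embryonal carcinoma line, 36 h after transfection with an esiRNA (a pool of short interfering RNAs cut from a long double-stranded RNA). An esiRNA targeted 1 of 7 SR proteins (SRSF1, SRSF2, SRSF3, SRSF4, SRSF5, SRSF6 or SRSF7), which are splicing factors that also act in mRNA export, and an esiRNA against GFP, a gene the cells lack, was the control. Each of these 8 transfections gave a whole-cell and a cytoplasmic RNA with replicates A and B, so that 32 libraries fall into 16 groups of 2. The 7 knockdowns of a fraction share its 2 GFP libraries. The cells are a single line and the knockdowns are partial. The study's methods call A and B biological replicates, and the labels give only their letters. The comparison asks whether the RNAs of the 3′ end machinery change when an SR protein is depleted, since such a change could reach the 3′ ends of other genes.

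Most mRNAs are cut behind a hexamer, AAUAAA or a close variant, and the new end is then extended with adenosines. The cleavage and polyadenylation specificity factor (CPSF) reads the hexamer, and Wdr33 and Fip1l1 encode subunits of it. Cleavage factor I, made of Nudt21 with Cpsf6 or Cpsf7, binds upstream of the cut, and the cleavage stimulation factor, with subunits encoded by Cstf2 and Cstf3, binds downstream of it. Pcf11 and Clp1 encode cleavage factor II, and the Pcf11 protein also binds RNA polymerase II and helps it to stop. Papola encodes the main nuclear poly(A) polymerase. Genes with several sites can end their RNA early, inside an intron, and Cstf3 and Pcf11 are known to do so themselves in an early intron.

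The ends that the results turn on are shown first, as the last 30 bases before an annotated 3′ end, read from the NCBIM37 genome (mm9). Capitals mark AATAAA or ATTAAA, the DNA forms of the hexamer. Of 44579 annotated ends of protein-coding transcripts, 35.6% hold AATAAA and 44.3% hold either hexamer in the same window, searched on the transcribed strand. Cstf3 is shown with its farther end in intron 3 and Pcf11 with its end in intron 1, since these last exons had larger shares after SRSF1 knockdown. The nearer Cstf3 end in intron 3 is that of another annotated transcript, for which no share was given. Each gene's early ends are set beside the end of its full-length RNA. The Papola end is shown for its larger share after SRSF7 knockdown. A match is a description of the letters, not a proof of use.
Cstf3 nearer end in intron 3, chr2:104449557-104449586, plus strand: tgcaacaacATTAAAacagtttcaatggtg
Cstf3 farther end in intron 3, chr2:104451534-104451563, plus strand: gaaAATAAAgctttgttaatacgttgttgt
Cstf3 end of the full-length RNA, chr2:104505553-104505582, plus strand: tttgaaaggAATAAAaggacctcaaaaaca
Pcf11 end in intron 1, chr7:99816694-99816723, minus strand: aaaatttgtgAATAAAacatataaaatatg
Pcf11 end of the full-length RNA, chr7:99792765-99792794, minus strand: aaattataAATAAAaaatatttttgctatc
Papola end in an intron, chr12:107052250-107052279, plus strand: ttcccacATTAAAagtaagaatgatgacct

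The gene tables hold 26934765 to 40871795 reads per whole-cell library and 27713893 to 48585781 per cytoplasmic library, after division by the value of 1 read. The targeted gene stood at 48.1% to 66.3% of GFP in the whole cell, below both control libraries in 7 of 7 knockdowns. In the cytoplasm it stood at 37.3% to 76.4%, below both control libraries in 6 of 7. All 8 markers of embryonal carcinoma cells were present, with a summed level of 52965 to 79476 scaled reads in the whole cell, lowest in both SRSF3 libraries. Replicates differ in kind. The 6 endoderm and epithelium markers summed to 1641 to 2816 scaled reads in the whole-cell A libraries. They summed to 6611 to 9666 in the B libraries. In the cytoplasm the 8 pancreas markers summed to 43.9 to 637 scaled reads in A libraries and to 30.9 to 50.2 in B libraries, with 505 in SRSF1 A, 545 in SRSF3 A and 565 in GFP A. The part of these differences in the results below was not tested, and values of A and B are given apart.

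The members differ widely in level. As FPKM, which is per length, the authors' value for GFP cells, with both replicates combined and so without an error, was highest for Cstf2 in the whole cell (128), followed by Papola (113), Fip1l1 (77.2), Cpsf6 (53.0) and Nudt21 (43.9). Wdr33 (32.03), Cstf3 (30.9) and Cpsf7 (25.5) came next, and the FPKM of Pcf11 (13.1) and Clp1 (9.09), the pair of cleavage factor II, was lowest. In the cytoplasm the order was another one, with Cstf2 at 83.7 FPKM, Nudt21 at 70.8 and Pcf11 at 0.855. The cytoplasmic FPKM over the whole-cell FPKM ran from 0.0653 for Pcf11, 0.259 for Papola and 0.272 for Cpsf6 up to 1.47 for Clp1 and 1.61 for Nudt21. The 2 tables were normalised separately, so only the order of these ratios among genes can be read.

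In the whole cell 2 members changed in level, both after depletion of SRSF3 and both upward, and they belong to different complexes. Pcf11 (ENSMUSG00000041328) stood at 4432 scaled reads in A and 2734 in B after SRSF3 knockdown, against 1907 and 1978 in GFP cells. Both knockdown libraries lay above both controls, and A lay far above B. Its log2 change was 0.83 ± 0.18 (SE, n = 2 per group; limma over all genes, adjusted p = 0.0168). Cstf3 (ENSMUSG00000027176), the scaffold of the cleavage stimulation factor, stood at 3955 and 2433 scaled reads in A and B after SRSF3 knockdown, against 1852 and 1766 in GFP cells. Its log2 change was 0.77 ± 0.23 (SE; limma, adjusted p = 0.0477), again with A above B and no overlap with the control. These 2 calls among 10 members stand beside 11.5% of all 18552 genes tested in that comparison. The members' median log2 change was 0.02 and that of all genes -0.00 in this comparison, and 6 of 10 members stood higher. At an unadjusted p below 0.05 there were 4 members, beside 28.6% of all genes. The sums of some marker lists were also low in these libraries. The 8 embryonal carcinoma markers summed to 53553 and 52965 scaled reads in A and B after SRSF3 knockdown, against 65998 and 68218 in GFP cells. These were the lowest A and the lowest B library of the whole-cell set. In the cytoplasm they summed to 102150 and 116154 after SRSF3 knockdown, against 136429 and 146144, again the lowest A and B. The 6 endoderm and epithelium markers summed to 1641 and 6611 in the whole cell after SRSF3 knockdown, against 2557 and 7888. Other lists were not low in both libraries. The 4 neural markers summed to 2013 and 1843 there, against 2030 and 1185 in GFP cells. The 4 mesoderm and smooth muscle markers summed to 1746 and 3302, against 1492 and 4880. The part of these markers in the SRSF3 results was not tested. In such bulk RNA fewer cells of a type and less RNA per cell cannot be told apart.

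In limma on all whole-cell libraries, a further 2 members passed after SRSF3 knockdown only with a replicate block, which takes the letters A and B as pairs. Clp1 (ENSMUSG00000027079), an RNA kinase that partners Pcf11, had the largest log2 change of the members, 1.11 ± 0.37 (SE; limma adjusted p = 0.0723, with the replicate block 0.000344). It stood at 1710 and 707 scaled reads in A and B after SRSF3 knockdown, against 525 and 482 in GFP cells. Cpsf6 (ENSMUSG00000055531), a partner of Nudt21, was the only one of the 4 that stood lower. It had 3800 and 3683 scaled reads after SRSF3 knockdown, against 5831 and 4592 in GFP cells, a log2 change of -0.48 ± 0.16 (SE; limma adjusted p = 0.0732, with the replicate block 0.00158). With the block the adjusted p was 0.000374 for Pcf11 and 0.000588 for Cstf3, and the model called 4 of 10 members, where it called 33.2% of all genes. The other members had smaller log2 changes in the same libraries, with -0.01 for Nudt21, 0.11 for Cpsf7, -0.03 for Cstf2, -0.08 for Fip1l1, 0.03 for Wdr33 and 0.00 for Papola, and none passed the test with or without the block.

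The size of these differences depends on library A of the SRSF3 knockdown. Without that library the log2 change was 0.49 for Pcf11, 0.42 for Cstf3 and 0.48 for Clp1, lower than with both libraries but still upward. Over the fits that left out 1 library it reached 1.16 for Pcf11, 1.10 for Cstf3 and 1.74 for Clp1. None of these members was called in each of those fits, and the number of calls over all genes moved between them as well. A fit of only the 4 libraries of the comparison called 0 members (adjusted p = 0.0915 for Pcf11 and 0.104 for Cstf3; limma). Over all 17673 genes tested, that fit called 163 higher and 40 lower. On recovered reads edgeR called Pcf11 and Cstf3 (adjusted p = 0.0155 and 0.0372), and DESeq2 called these and Clp1 (0.00836). Of all 17775 genes tested there, edgeR called 1128 higher and 887 lower, and DESeq2 called 1490 and 1247.

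**Figure D1:**
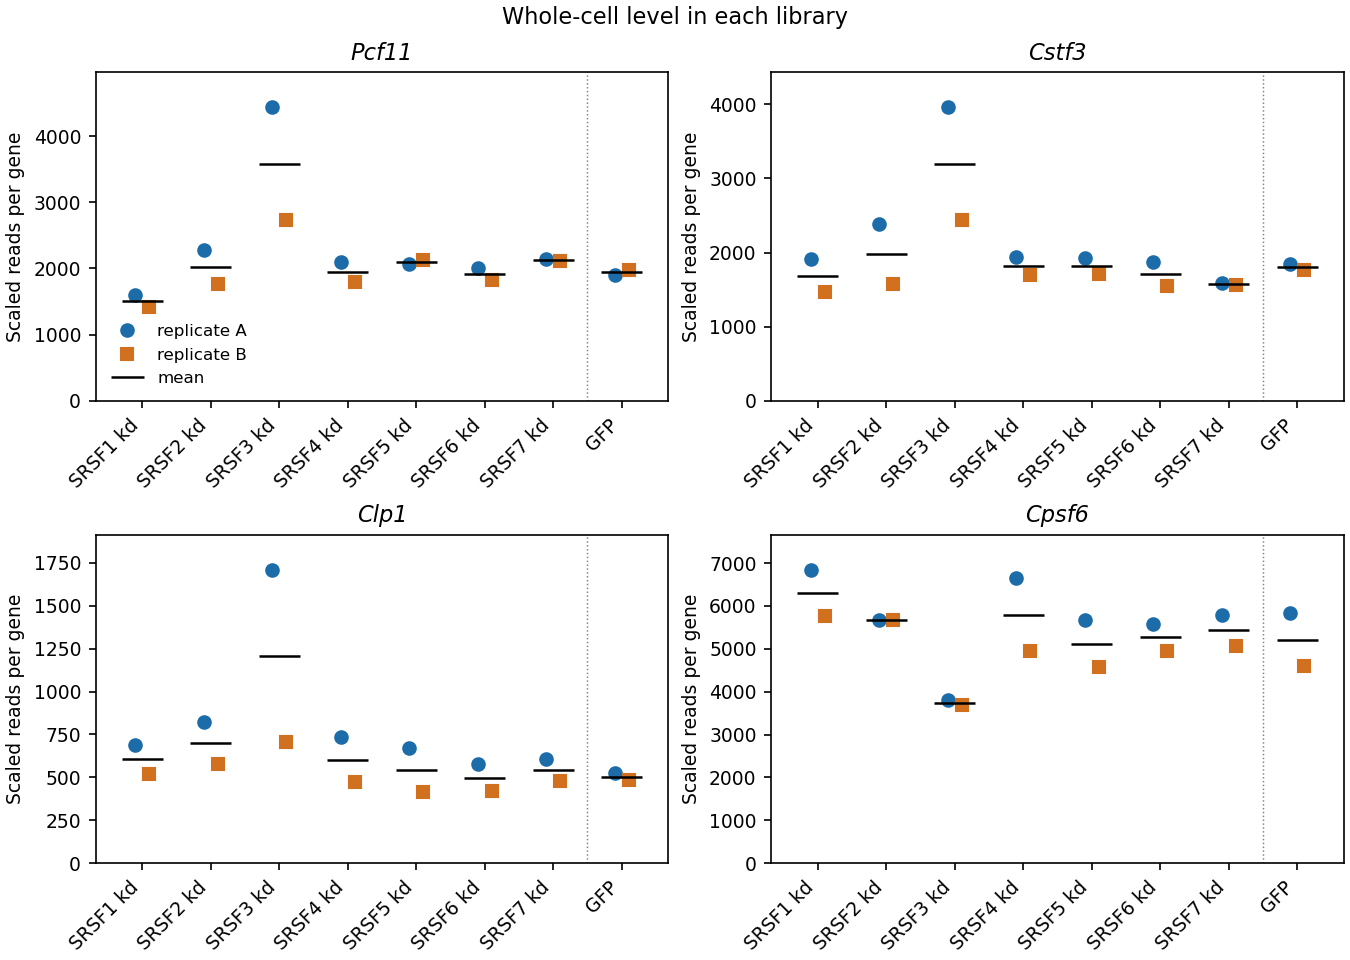
Whole-cell level of Pcf11, Cstf3, Clp1 and Cpsf6 in each library, in scaled reads per gene (vertical axis, from 0), by group (horizontal axis, knockdowns left of GFP). Points are replicates A (circles) and B (squares) and bars are means of 2. Pcf11, Cstf3 and Clp1 stand highest in the SRSF3 knockdown, with replicate A above B (Pcf11 at 4432 and 2734), and Cpsf6 stands lowest there.

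After the other 6 knockdowns 0 members changed in the whole cell by limma, where 0.152% of all tests passed, and edgeR and DESeq2 called 0 as well. At an unadjusted p below 0.05 there was 1 of 60 member tests, beside 6.43% of all tests. The smallest adjusted p among the members there was 0.334, for Papola after SRSF2 knockdown. Papola (ENSMUSG00000021111) stood at 12964 and 11570 scaled reads in A and B after SRSF2 knockdown, against 10877 and 9615 in GFP cells. Its log2 change was 0.26 ± 0.095 (SE), and with the replicate block the adjusted p was 0.0479. That was the 1 member called with the block after SRSF2 knockdown, where 5.99% of all genes were called. With the block, 0 members were called after the other 5 knockdowns, where 2.44% of all tests passed. Pcf11 stood lower after SRSF1 knockdown, at 1605 and 1418 scaled reads against 1907 and 1978 in GFP cells, with a log2 change of -0.36 that did not pass (limma). Fip1l1, Cstf2 and Nudt21 varied least over the 16 whole-cell libraries: Fip1l1 ran from 4552 to 5321 scaled reads with a median of 4936, Cstf2 from 5876 to 6776 with a median of 6248, and Nudt21 from 3236 to 4026 with a median of 3559.

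In the cytoplasm 0 members were called by limma after any of the 7 knockdowns, where 0.087% of all tests passed. There edgeR called 0 and DESeq2 called 1 (Clp1 after SRSF3 knockdown, adjusted p = 0.0278). Of all 17117 genes tested after SRSF3 knockdown, DESeq2 called 488 higher and 173 lower. At an unadjusted p below 0.05 there were 3 of 70 member tests, beside 6.05% of all tests. With the replicate block 3 members were called after SRSF3 knockdown, where 14% of all genes were called, and 1 after SRSF2 knockdown, where 1.84% were called. Clp1 stood at 1410 and 1031 scaled reads in A and B after SRSF3 knockdown, against 716 and 685 in GFP cells, a log2 change of 0.78 (adjusted p = 0.133, with the block 0.00207; limma). After SRSF2 knockdown Clp1 stood at 1210 and 882 scaled reads, a log2 change of 0.56 (adjusted p = 0.664, with the block 0.0481). Clp1 thus lay above both controls in both fractions after each of these knockdowns. With the block 0 members were called after the other 5 knockdowns in the cytoplasm, where 1.21% of all tests passed.

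The other 2 members called with the block in the cytoplasm differ in how their libraries lie. Cstf2, which binds the U-rich sequence behind the cut, stood at 4333 and 4213 scaled reads in A and B after SRSF3 knockdown, against 3219 and 3287 in GFP cells. Its libraries were close together in each group, and the log2 change was 0.39 (adjusted p = 0.291, with the block 0.0378; limma). Pcf11 stood at 573 and 150 scaled reads after SRSF3 knockdown, against 187 and 119 in GFP cells, so the groups overlapped. Its log2 change was 0.96 (adjusted p = 0.657, with the block 0.0276), and it was 0.01 without library A of the knockdown and 1.94 without library B. Library A of the SRSF3 knockdown also held the most nuclear RNA markers of the cytoplasmic libraries: 6 such RNAs (Malat1 and others) summed to 3232 and 1532 scaled reads in SRSF3 A and B, against 1758 and 1481 in GFP. The part of this in the Pcf11 value was not tested.

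The level in the cytoplasm relative to the whole cell, tested as an interaction over all 32 libraries, changed for 0 members after any knockdown by limma, edgeR or DESeq2, where 0.0111% of all tests passed by limma. At an unadjusted p below 0.05 there was 1 of 70 member tests (Cstf2 after SRSF3 knockdown), beside 1.52% of all tests. With the block it again called 0 members, where 0.0988% passed. The log2 changes of this ratio ran from -0.64 to 0.52 over members and knockdowns. For Clp1 after SRSF3 knockdown it was -0.37, and no difference between the fractions was detectable with 2 libraries per group.

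In the cytoplasm 8 of the 10 members stood higher in A than in B in each of the 8 groups, GFP included, all but Nudt21 and Cstf2. Differences between A and B recurred over genes at large, with correlations between groups of 0.449 to 0.827 in the cytoplasm. The share of all genes with the members' pattern was not counted, so it cannot be read as particular to them. Papola, for example, ran from 2548 to 5390 scaled reads in the cytoplasmic A libraries and from 1901 to 3687 in the B libraries. Nudt21, which binds UGUA in the precursor RNA, lay between 5551 and 6867 scaled reads in all 16 cytoplasmic libraries, with log2 changes from -0.14 to 0.12.

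**Figure D2:**
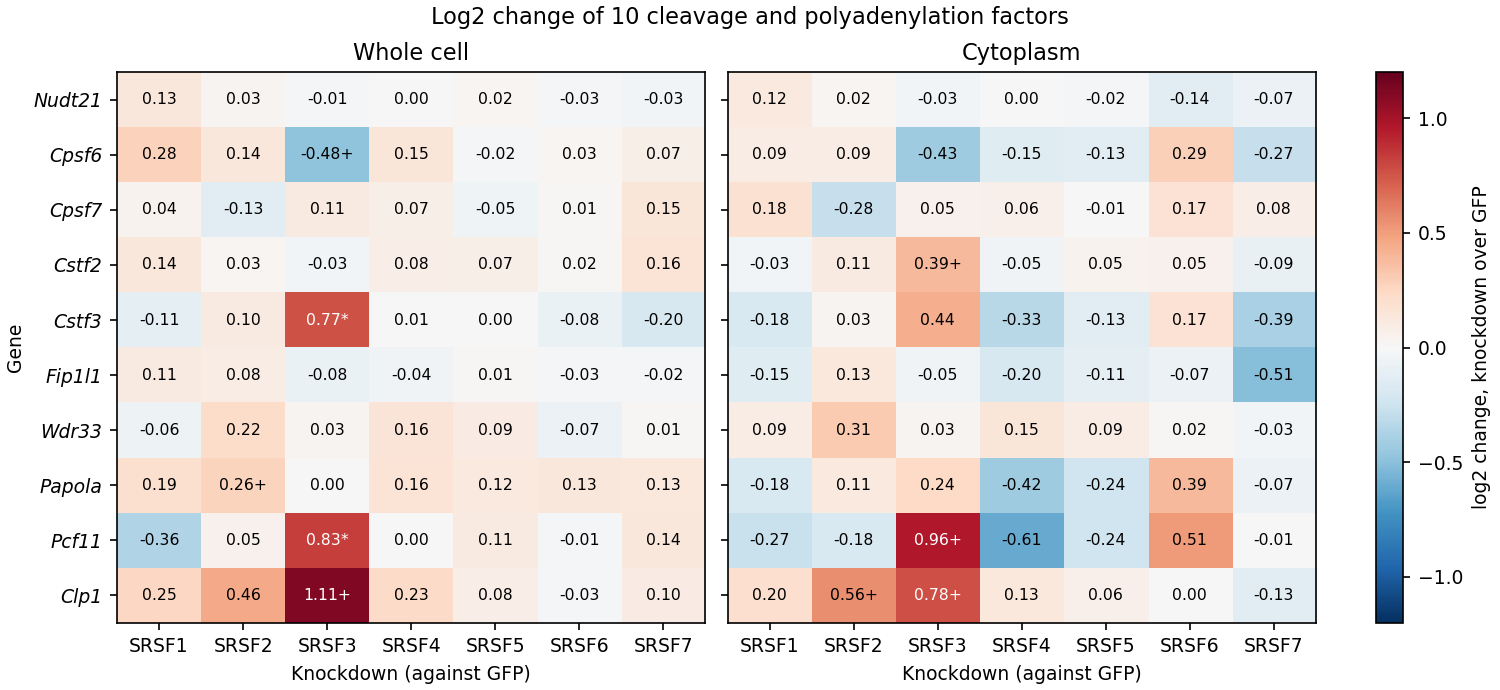
Log2 change of each of the 10 members (down the page) after each of 7 knockdowns (across) over GFP, in the whole cell and in the cytoplasm. An asterisk marks an adjusted p below 0.05 in limma and a plus sign one that passed only with the replicate block. The SRSF3 column holds the highest values, with Clp1 at 1.11, Pcf11 at 0.83 and Cstf3 at 0.77 in the whole cell.

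The form of the members' RNAs, meaning which exons were read, was called changed mostly after SRSF1 knockdown, with 7 of the 10 whole-cell calls. Reads in exon bins (parts of exons, cut wherever annotated transcripts differ; mm10) were tested with limma's diffSplice, which sets the change of a bin against the other bins of its gene. Between 219 and 221 bins of the members were tested per whole-cell comparison and between 182 and 195 per cytoplasmic one. SRSF1 knockdown changed 7 bins of 4 members in the whole cell, all upward, beside 0.314% of all bins tested. SRSF7 knockdown changed 2 bins, both upward, beside 0.072%, SRSF3 knockdown 1 bin, downward, beside 0.384%, and the other 4 knockdowns 0, beside 0.0272%. In the cytoplasm 1 bin changed after SRSF7 knockdown, beside 0.0484%, and 0 after the other 6, beside 0.116%. Of the members, Cstf3 had 5 of the 10 whole-cell calls, Fip1l1 had 2, and Pcf11, Cpsf6 and Papola had 1 each. The bins of Nudt21, Cpsf7, Clp1, Cstf2 and Wdr33 gave no call in this fit.

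After SRSF1 knockdown Cstf3 gained reads at its 5′ end and in the part of intron 3 that only the short transcripts hold. Bin E007, the 243 bases of intron 3 that follow exon 3 (chr2:104609187-104609429 in mm10), held 93.9 and 60.4 scaled reads in A and B after SRSF1 knockdown, against 24.6 and 29.7 in GFP cells. Its log2 change relative to the rest of the gene was 1.60 (adjusted p = 0.00204, diffSplice; n = 2 per group). Bin E008, the next 1977 bases up to the farther intronic end, held 163 and 132 scaled reads after SRSF1 knockdown, against 73.7 and 89.1 in GFP cells, a relative log2 change of 1.01 (adjusted p = 0.0184). Bins E004 and E006, which lie before intron 3 and are shared with the full-length RNA, rose as well, by 0.84 and 0.87 on that scale (adjusted p = 0.0276 and 0.0217). Most bins behind intron 3 lay below the control in both pairs of libraries. When 1 of the 4 libraries was left out, E007 was called in 1 of 4 such fits (adjusted p from 0.00563 to 0.261) and E008, E006 and E004 in 0, while the relative log2 change of E007 stayed between 1.41 and 1.76.

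Set against the reads of the bins behind them (E009 to E033), the intronic bins of Cstf3 give a ratio per library. The bins before E007 are not counted in it. Bins E007 and E008 together held 14.4 and 13.7 reads per 100 reads of the bins behind them in A and B after SRSF1 knockdown in the whole cell. In GFP cells they held 4.49 and 5.56, and the ratio of the means was 2.80. After SRSF7 knockdown the ratio was 8.79 and 8.82, also above both controls, and there E008 alone was called (141 and 141 scaled reads after SRSF7 knockdown against 80.2 and 96.8 in GFP cells, relative log2 change 0.89, adjusted p = 0.0676), a call kept in 0 of the 4 fits that left out a library (adjusted p from 0.116 to 1.00). After SRSF3 knockdown, where the gene as a whole rose, the ratio was 2.36 and 3.54, below both controls. The bins differed there. Bin E007 held 51.6 and 32.9 scaled reads after SRSF3 knockdown against 25.0 and 30.3 in GFP cells, a relative log2 change of -0.16 that did not pass. Bin E008 held 66.2 and 70.3 scaled reads after SRSF3 knockdown against 75.1 and 90.9 in GFP cells, a relative log2 change of -1.03 that did not pass (adjusted p = 0.855).

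In the cytoplasm the 2 intronic bins of Cstf3 parted. Bin E007 held 104 and 59.5 scaled reads in A and B after SRSF1 knockdown, against 15.8 and 22.7 in GFP cells, a relative log2 change of 2.30 (adjusted p = 0.133, with the replicate block 0.00290; diffSplice). Bin E008, the longer of the pair, held 11.6 and 3.84 scaled reads after SRSF1 knockdown against 5.65 and 4.94 in GFP cells, and it did not pass. After SRSF1 knockdown most cytoplasmic reads of the pair thus lay before the nearer of the intronic ends printed above, the one with ATTAAA, while in the whole cell more lay behind it. After SRSF7 knockdown E007 held 28.4 and 17.2 and E008 13.7 and 9.04 scaled reads in the cytoplasm, and neither passed. The 1 transcript that holds E008 is annotated as a retained intron, and so is the transcript that ends at the nearer intronic end. The reads of E007 and E008 are thus not shown to come from RNA that ends in intron 3. Both bins together held 10.8 and 11.9 reads per 100 reads of the bins behind them in the cytoplasm after SRSF1 knockdown. In GFP cells they held 1.61 and 2.62. That ratio also lay above both controls after SRSF5 (3.03 and 2.74), SRSF6 (3.52 and 4.17) and SRSF7 knockdown (4.55 and 3.02). After SRSF2, SRSF3 and SRSF4 knockdown it overlapped them.

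Pcf11 also gained reads at its 5′ end, relative to the rest of the gene, after SRSF1 knockdown. Bin E021, its first exon (chr7:92669429-92669933 in mm10, minus strand), held 138 and 103 scaled reads in A and B after SRSF1 knockdown, against 60.4 and 62.2 in GFP cells, a relative log2 change of 1.38 (adjusted p = 0.00227; diffSplice). This exon is part of the full-length RNA too. The call was kept in 3 of the 4 fits that left out a library, with adjusted p from 0.0170 to 0.549. Per 100 reads of the rest of the gene the first exon held 8.18 and 6.93 reads after SRSF1 knockdown. In GFP cells it held 2.99 and 2.70. On that scale it also stood above both controls after SRSF2 (3.74 and 4.36), SRSF3 (3.85 and 4.06) and SRSF6 knockdown (3.42 and 3.68). After SRSF7 knockdown it stood below both (2.54 and 2.29). In the cytoplasm, where full-length Pcf11 is scarce, it held 71.7 and 106 reads per 100 reads of the rest after SRSF1 knockdown, against 3.54 and 16.1 in GFP cells (relative log2 change 3.24, adjusted p = 0.165, with the replicate block 0.00420). The cytoplasmic ratios of other groups varied between A and B, with 3.08 in A and 84.6 in B after SRSF2 knockdown, on 7 and 44 reads.

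**Figure D3:**
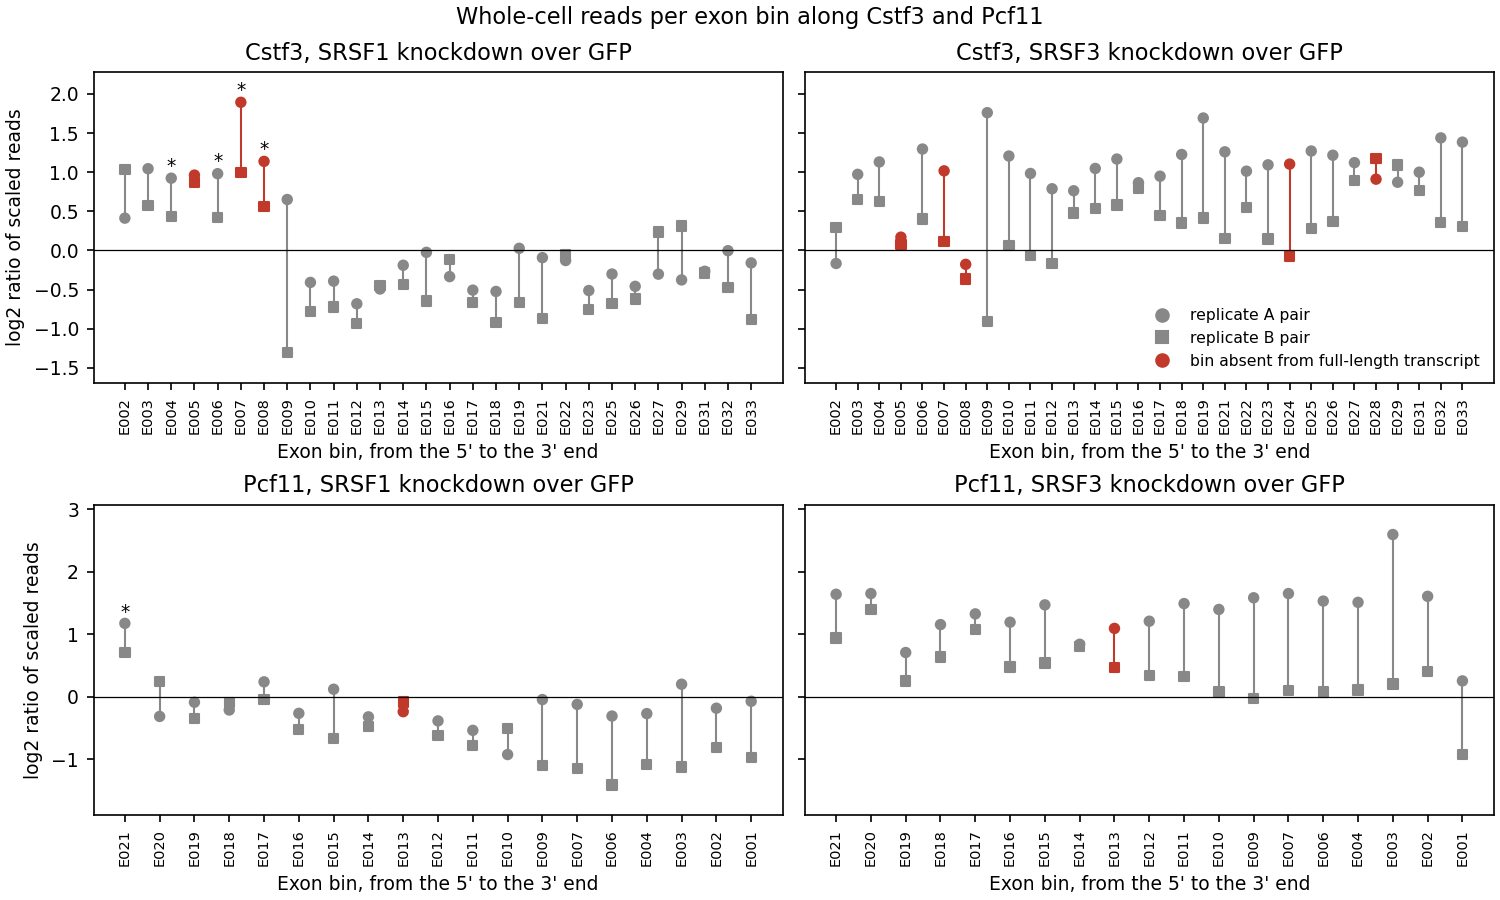
Log2 ratio of scaled whole-cell reads, knockdown over GFP (vertical axis), for each exon bin of Cstf3 and Pcf11 with a mean of at least 5, in order from the 5′ to the 3′ end (horizontal axis), after SRSF1 (left) and SRSF3 knockdown (right). Circles and squares are the pairs of A and of B libraries, red bins are absent from the full-length transcript, and an asterisk marks an adjusted p below 0.1. After SRSF1 knockdown the bins up to E008 of Cstf3 and the first exon E021 of Pcf11 stand above 0 in both pairs, and after SRSF3 knockdown most bins of both genes do.

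Of the other members, Papola changed in form after SRSF7 knockdown in both fractions. Bin E035 (chr12:105813283-105814069 in mm10) is an intronic stretch of 787 bases held by 1 short transcript. That transcript is annotated as a retained intron, so reads of the bin are not shown to come from RNA that ends there. In the cytoplasm the bin had 40.1 and 29.8 scaled reads in A and B after SRSF7 knockdown, against 7.85 and 6.88 in GFP cells. The relative log2 change was 2.21 (adjusted p = 0.00279; diffSplice), and in the whole cell it was 1.02 (adjusted p = 0.0337), with 78.8 and 92.4 scaled reads after SRSF7 knockdown against 45.7 and 31.3 in GFP cells. These reads are a small part of Papola. Per 100 reads of the other bins they were 0.765 and 0.642 in the cytoplasm after SRSF7 knockdown. In GFP cells they were 0.141 and 0.144, on 7 reads in each library. The cytoplasmic ratio also lay above both controls after SRSF2 (0.277 and 0.295), SRSF3 (0.176 and 0.173), SRSF4 (0.287 and 0.407) and SRSF5 knockdown (0.314 and 0.177). After SRSF1 and SRSF6 knockdown it overlapped them. In the whole cell it lay below both controls after SRSF2, SRSF4 and SRSF5 knockdown. When 1 of the 4 libraries was left out the call was kept in 1 of 4 fits in the cytoplasm and in 1 of 4 in the whole cell, with adjusted p from 0.00633 to 0.599 in the cytoplasm.

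Fip1l1 (ENSMUSG00000029227) lost reads of its last exon after SRSF3 knockdown. Bin E036 (chr5:74596207-74598790 in mm10), which holds the end of the coding region and the 3′ UTR in 2584 bases, had 405 and 480 scaled reads in A and B after SRSF3 knockdown, against 687 and 931 in GFP cells. Its relative log2 change was -0.88 (adjusted p = 0.00117; diffSplice), it was kept in 2 of 4 fits that left out a library, and edgeR's diffSpliceDGE did not call it (adjusted p = 0.109). The log2 change of Fip1l1 as a whole was -0.08 there, and it did not pass. Per 100 reads of the other bins the last exon held 5.45 and 6.28 reads after SRSF3 knockdown, against 9.55 and 12.01 in GFP cells. The ratio stood above both controls after SRSF7 knockdown, at 16.4 and 14.7. The last exon bins of all 10 members were tested in the whole cell after every knockdown. The Fip1l1 bin after SRSF3 knockdown was the 1 call among them, beside 0.384% of all bins in that comparison.

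The remaining calls after SRSF1 knockdown were in Cpsf6 and Fip1l1. Bin E022 of Cpsf6, 787 bases held by 1 transcript other than the full-length one (chr10:117362188-117362974 in mm10, minus strand), had 172 and 110 scaled reads in A and B in the whole cell after SRSF1 knockdown, against 44.0 and 30.6 in GFP cells (relative log2 change 1.51, adjusted p = 0.0337; diffSplice). Per 100 reads of the other bins it held 1.89 and 1.44 reads after SRSF1 knockdown, against 0.580 and 0.489 in GFP cells. That ratio also lay above both controls after SRSF2, SRSF3, SRSF6 and SRSF7 knockdown, at most 1.03, in SRSF3 B. In the cytoplasm the same bin held 1 read in each SRSF1 library and 0 in both GFP libraries, which allows no comparison. Bin E022 of Fip1l1, an exon part of 27 bases, had 350 and 325 scaled reads after SRSF1 knockdown, against 195 and 232 in GFP cells (relative log2 change 0.56, adjusted p = 0.0599). Left-out libraries kept the call of the Cpsf6 bin in 1 of 4 fits and that of the Fip1l1 bin in 0.

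With the replicate block more bins passed. In the whole cell it called 13 bins of members after SRSF1 knockdown, beside 0.506% of all bins, 5 after SRSF7 knockdown, beside 0.154%, 3 after SRSF3 knockdown, beside 0.49%, and 1 after SRSF2 knockdown, beside 0.177%. The other 3 knockdowns gave 0, beside 0.00534%. In the cytoplasm it called 9 bins after SRSF1 knockdown, beside 0.908%, 2 after SRSF3 knockdown, beside 1.75%, 2 after SRSF6 knockdown, beside 0.0759%, 2 after SRSF7 knockdown, beside 0.315%, and 0 after the other 3, beside 0.00962%. The added whole-cell calls after SRSF1 knockdown include 5′ exons of Wdr33. Bin E004 of Wdr33, for example, held 207 and 181 scaled reads in A and B after SRSF1 knockdown, against 115 and 124 in GFP cells (relative log2 change 0.85, adjusted p = 0.524, with the block 0.00138). Bins of Cpsf6 that the full-length RNA lacks were among the added calls after 4 knockdowns, each upward: E018 after SRSF1 and SRSF3 knockdown, E019 after SRSF2 and SRSF7 knockdown, and E006 after SRSF7 knockdown. Bin E019 held 119 and 88.3 scaled reads in A and B after SRSF2 knockdown, against 49.1 and 40.9 in GFP cells (relative log2 change 1.10, adjusted p = 0.187, with the block 0.00427). Of the cytoplasmic calls with the block, 5 were in Cstf2, whose bins share a gene model with an overlapping miRNA gene, so reads of the 2 genes cannot be told apart there.

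Choice between last exons was also given as a share by MISO, which estimates how often each of 2 annotated last exons is used. The authors ran it on pooled replicates, so a share has a 95% credible interval but no replicate error. The files hold 24 such events for 7 members and none for Nudt21, Cpsf6 and Clp1, and no event of tandem 3′ UTRs at any member. An event was called where the share differed by at least 20 points and the intervals did not overlap. In the whole cell 2 events of members were called after SRSF1 knockdown, beside 0.669% of all events, and 0 after the other 6, beside 0.286%. In the cytoplasm 3 were called after SRSF1 knockdown, beside 1.21%, 1 after SRSF2 knockdown, beside 0.85%, 1 after SRSF7 knockdown, beside 0.439%, and 0 after the other 4, beside 0.545%.

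The SRSF1 calls are the early ends of Cstf3 and Pcf11. The last exon in intron 3 of Cstf3 (chr2:104449248-104451563 in mm9, ending at the farther end printed above) had a share of 49% after SRSF1 knockdown (interval 46 to 52) in the whole cell, against 25% (23 to 28) in GFP cells. In the cytoplasm its share was 39% (36 to 42) after SRSF1 knockdown, against 12% (9 to 14). A second event of Cstf3, set on the last exon of the full-length RNA, gave that exon 59% (56 to 63) in the cytoplasm after SRSF1 knockdown, against 87% (85 to 89) in GFP cells. For Pcf11 the last exon in intron 1 (chr7:99816694-99818399 in mm9) had a share of 74% (71 to 77) in the whole cell after SRSF1 knockdown, against 44% (40 to 48), and of 96% (94 to 97) in the cytoplasm, against 76% (69 to 83). These shares count reads of the full-length RNA as well, since 96 of the 2316 bases of the Cstf3 exon and 461 of the 1706 bases of the Pcf11 exon also lie in full-length exons. Each share was set against another annotated last exon, which lies before the last exon of the full-length RNA. A further event sets the Pcf11 exon against the last exon of the full-length RNA. It was called in 0 comparisons, with shares from 68% to 99% over the knockdowns. After SRSF3 knockdown, where both genes rose in level, the share of the Cstf3 exon in the whole cell was 17% (15 to 19), below that of GFP cells, by less than 20 points.

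**Figure D4:**
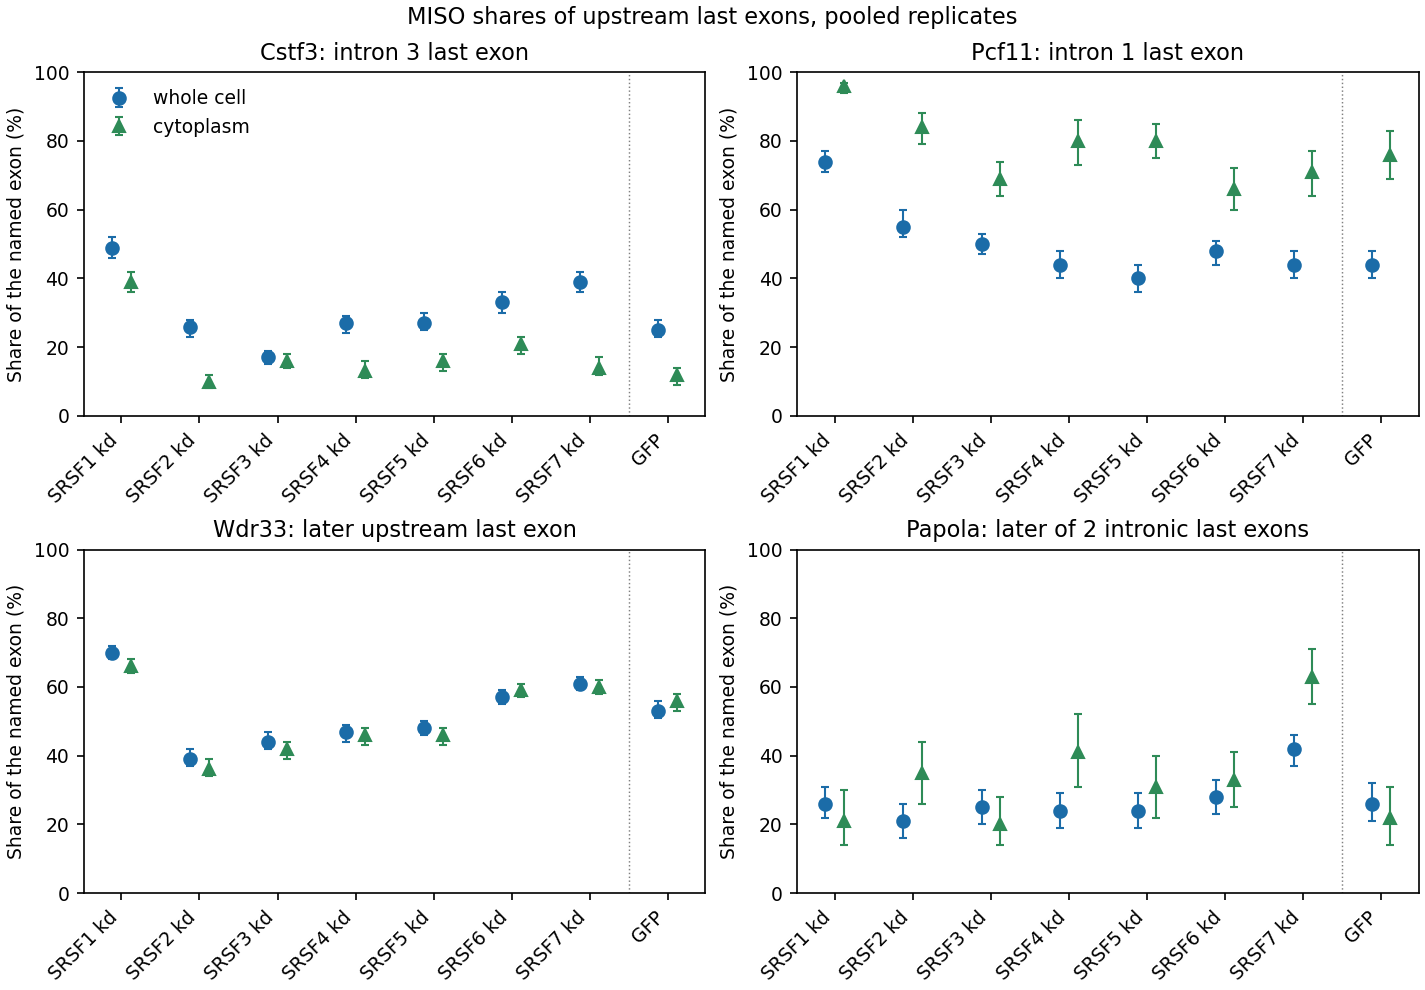
Share of the named last exon in percent (vertical axis) by knockdown and in GFP cells at the right (horizontal axis), in the whole cell (circles) and the cytoplasm (triangles). Bars are 95% credible intervals of pooled replicates. The early last exons of Cstf3 and Pcf11 are highest after SRSF1 knockdown (49% and 74% in the whole cell), the Papola exon after SRSF7 knockdown (63% in the cytoplasm), and the Wdr33 exon lowest after SRSF2 knockdown (36% in the cytoplasm).

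The other 2 calls concern Papola and Wdr33. Of 2 intronic last exons of Papola, the later one, whose ATTAAA end is printed above, had 63% (55 to 71) in the cytoplasm after SRSF7 knockdown, against 22% (14 to 31) in GFP cells, on 141 and 87 reads. In the whole cell the shares were 42% (37 to 46) and 26% (21 to 32), a difference under 20 points. Its 872 bases less the 85 that it shares with the full-length RNA have the length of bin E035, 787 bases. In Wdr33 an upstream last exon had 36% (34 to 39) in the cytoplasm after SRSF2 knockdown, against 56% (53 to 58) in GFP cells, and 39% (37 to 42) in the whole cell, against 53% (51 to 56). After SRSF1 knockdown the same exon had 70% (68 to 72) in the whole cell and 66% (64 to 68) in the cytoplasm, against 53% (51 to 56) and 56% in GFP cells, on the other side of the control and by less than 20 points.

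Other genes of the pathway were taken from 8 lists with 44 genes, of which Dom3z was not tested. After SRSF3 knockdown 2 of 43 rose and 1 fell in the whole cell by limma, beside 11.5% of all genes, and 0 were called after any other knockdown or in the cytoplasm. Their median log2 change was 0.08, and that of all genes -0.00. Zfp473, which takes part in the 3′ end processing of histone RNAs, stood at 945 and 912 scaled reads after SRSF3 knockdown against 662 and 603 in GFP cells (log2 change 0.54, adjusted p = 0.0120). Ints9, a subunit of the Integrator complex related to a CPSF subunit, had 3333 and 2867 scaled reads after SRSF3 knockdown against 2305 and 2192 (0.45, adjusted p = 0.0293). Rprd1a, which binds the tail of RNA polymerase II, fell to 2509 and 2682 scaled reads after SRSF3 knockdown, against 3569 and 3693 in GFP cells (-0.50, adjusted p = 0.0166). With the replicate block 8 rose and 3 fell after SRSF3 knockdown, 6 rose and 6 fell after SRSF1 knockdown, and 1 rose and 2 fell after SRSF2 knockdown in the whole cell, where 33.2%, 11% and 5.99% of all genes were called. In the cytoplasm the block called 4 higher and 2 lower after SRSF3 knockdown, 0 higher and 2 lower after SRSF1 knockdown, and 0 higher and 2 lower after SRSF2 knockdown, where 14%, 5.87% and 1.84% of all genes were called. The genes that rose with the block after SRSF1 knockdown in the whole cell include Xrn2, the nuclease that follows the polymerase behind the cut, at 7625 and 7186 scaled reads after SRSF1 knockdown against 5589 and 5687 in GFP cells (log2 change 0.39, adjusted p = 0.0667, with the block 0.00689). Sympk, a scaffold of the CPSF complex, stood lower with the block after SRSF1, SRSF2 and SRSF3 knockdown in the whole cell, with log2 changes of -0.25, -0.29 and -0.23.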

How the data were processed

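Whole-cell and cytoplasmic poly(A)+ RNA of 32 libraries was analysed. The submitters' processing notes name Cufflinks 2.1.1, Bowtie2 2.1.0, TopHat2 2.0.10 and 2.0.9, cutadapt and CASAVA 1.8.2, with builds mm10 and mm9. The gene tables hold a signal, reads per gene that the authors scaled to a common depth, and in the exon-bin tables the signal is reads per bin, which the authors divided by 1 factor per library. FPKM values were deposited by the authors per condition, with replicates combined. The MISO files hold a fraction of isoform use, deposited by the authors for pooled replicates and printed as percent. Its first arm was identical in all 7 files of a fraction and was read as GFP, the shared control. Columns of the authors' own fold changes, p-values and Bayes factors were not used. MISO events and genome sequence are in mm9 and exon bins in mm10, and none was converted.

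Genes were tested with limma 3.58.1 on log2(scaled reads + 1), with TMM factors, filterByExpr and a variance trend, over the 16 libraries of a fraction, and with an interaction over 32 for the relative level. Benjamini-Hochberg adjustment ran over all genes, at 0.05. Fold changes of low genes are understated on this scale. diffSplice on vooma weights was run for bins whose mean reached 5, at 0.1, on the 4 libraries of a table. Count tools (edgeR 4.0.16, DESeq2 1.42.0) were run as alternatives on reads recovered from the exon-bin tables, where 100% of values came out whole within 0.01. For SRSF3 knockdown in the whole cell edgeR then called 1128 genes higher and 887 lower, DESeq2 1490 and 1247, and limma 1096 and 1037.

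The A minus B differences of any 2 groups correlated over genes (0.238 to 0.814 in the whole cell, 0.449 to 0.827 in the cytoplasm, 28 pairs of groups), so A and B were taken to pair the libraries. The labels give only the letters. The pairing rests on this check and on differences between A and B that recur in each group, such as the endoderm and epithelium markers. The main model has no block and so does not use this pairing. Results with the replicate block are given beside it. The scripts were tested on simulated data. Members, lists and rules were chosen with earlier results of these data known. Named are all members, every bin called with or without the block (values for the most significant, counts for the rest), all MISO events in counts, and listed pathway genes that were called.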

Additional observations from a re-analysis of the deposited data

How the results depend on the processing

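Each group has 2 libraries, so changes can be missed, and a count of 0 does not show that the members were alike. The calls over all genes moved between settings too. After SRSF3 knockdown in the whole cell limma called 1096 genes higher and 1037 lower in the main model. With only the 4 libraries of the comparison it called 163 and 40, and with the replicate block 2994 and 3162. In the whole cell 2 members were called in the main model. The count was 1 with no filter on low values, 0 with only the 4 libraries of the comparison, 5 with the replicate block that pairs A and B, and 0 to 3 when 1 library was left out. In the cytoplasm 0 were called in the main model, 1 with DESeq2 (Clp1 after SRSF3 knockdown) and 4 with the replicate block. For the cytoplasm relative to the whole cell the count was 0 in every setting run. Of the exon bins, 10 were called in the whole cell, 22 with the replicate block and 0 to 6 when 1 library was left out. In the cytoplasm 1 was called, 2 with a pseudocount of 5, 15 with the replicate block and 0 to 12 when 1 library was left out. Calls over all bins moved too. After SRSF1 knockdown in the whole cell 558 of 177955 bins were called in the main model and 900 with the block. After SRSF7 knockdown in the cytoplasm 71 of 146580 were called, and 462 with the block. Of the last-exon events 7 were called, and 23 at a difference of at least 10 points. Over all events the calls rose as well, after SRSF1 knockdown from 55 to 234 of 8226 in the whole cell and from 93 to 275 of 7666 in the cytoplasm. Over single genes, bins and events, 751 values kept their direction and side of the threshold, 86 passed only in the alternative, 60 passed only in the main model, and 1 reversed: Rbbp6 after SRSF3 knockdown in the cytoplasm, at -0.17 without library A of the knockdown, within a range of -0.17 to 1.58 over the libraries left out (0.70 with all). The cause of these shifts was not tested. No alternative for tandem 3′ UTR events was run, since the members have none.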

Other observations

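The genes whose whole-cell pattern over the 8 group means was most like that of Pcf11, by Pearson's r of log2 level, were Gm4890 (0.994), Tnfaip8l1 (0.993) and Dnah10 (0.987). This is a description over 8 means that share the fit and the libraries, and it says nothing of a shared function.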
